A study of Mus musculus with 46 samples.

Results

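Nanog and 4 genes beside it on mouse chromosome 6, namely Apobec1, Gdf3, Dppa3 and Slc2a3, were followed by RNA-seq while fibroblasts were reprogrammed. These 5 genes were found by symbol among the 37108 rows of the gene table, and as 17 transcript rows among the 106520 of a transcript table, which sums to 35976 symbols. The group was chosen by position, as genes next to one another, and selected on day 12 (D12) values, in which Slc2a3 and Dppa3 had the largest positive differences between the combinations below. D12 values are therefore a description with no test.

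The starting cells were OG2 mouse embryonic fibroblasts (MEF), which carry an Oct4-GFP reporter, infected with retroviral Oct4 plus 1 of 2 forms of Nanog. NanogWT is the native protein, and NanogBiD carries at its N-terminus the part of SS18 that binds the BAF chromatin remodeler (labelled NanogN70). Both combinations thus shared vector Oct4, the reporter strain and the media, iCD3 from day 0 and N2B27 with 2iL later, and each was collected on 8 days from D0 to D12 with 2 samples a day, apart from NanogBiD at D8, which had 1. The paper places the switch of medium after D7 or at a chosen time point. The effects of time and of medium cannot be told apart across it. The 31 time-course samples stand beside 2 MEF samples and 1 of OG2 mouse embryonic stem cells (mES). A second table holds 12 samples of iPSC clones, 6 from each combination, again with MEF and mES. Of the NanogWT samples, 2 are labelled iPSC1 1 and iPSC1 1-2 and may be the same clone, so the 12 may not all be separate clones. The vectors carry Nanog coding sequence, so the deposited value for Nanog adds vector and endogenous transcripts, which cannot be told apart.

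Nanog is a homeodomain transcription factor of the pluripotent state, and its neighbourhood is known for several genes that are active in early embryos and embryonic stem cells. Slc2a3 encodes GLUT3, a high-affinity glucose transporter. Dppa3, also called Stella, is a maternal and germ cell factor that keeps UHRF1 off chromatin and so guards DNA against maintenance methylation. Gdf3 is a TGF-beta family ligand of the Nodal branch, and Apobec1 is a cytidine deaminase that edits C to U in RNA.

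By the GENCODE vM21 annotation of GRCm38, which is the mm10 build named in the submitters' notes, all 5 are protein-coding and fill 224 kb. Apobec1 lies at chr6:122577792-122602444 on the minus strand, Gdf3 at chr6:122605403-122610087 (minus), Dppa3 at chr6:122626410-122630272 (plus), Nanog at chr6:122707489-122714633 (plus) and Slc2a3 at chr6:122727809-122801640 (minus). No other gene of the gene table lies between the first and the last of them, although 4 annotated features outside that table do.

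RefSeq promoters were at hand for 2 of the 5 genes, Nanog and Apobec1, and are shown as the start regions at hand for genes of this locus. Each run is the 250 bases before a RefSeq transcript start on GRCm38.p6, read 5′ to 3′ on the strand of the gene, with capitals for TTTGCAT, the octamer-type letters, and ACAATG, SOX-type letters, together with the single base between them.
Nanog, plus strand, chr6:122707239-122707488: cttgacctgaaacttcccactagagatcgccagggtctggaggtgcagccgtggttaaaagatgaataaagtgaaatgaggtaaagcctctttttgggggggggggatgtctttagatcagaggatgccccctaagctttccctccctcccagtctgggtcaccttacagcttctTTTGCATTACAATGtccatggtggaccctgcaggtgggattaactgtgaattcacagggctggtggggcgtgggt
Apobec1, minus strand, chr6:122602445-122602694: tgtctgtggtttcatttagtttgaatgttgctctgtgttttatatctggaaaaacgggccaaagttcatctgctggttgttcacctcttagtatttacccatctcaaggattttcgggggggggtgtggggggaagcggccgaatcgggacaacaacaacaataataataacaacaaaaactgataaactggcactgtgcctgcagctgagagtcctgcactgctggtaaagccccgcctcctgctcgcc
In the Nanog run the joined letters, TTTGCAT and ACAATG with 1 base between, span positions -75 to -62, where -1 is the base before the start. On either strand, this joined form occurs in 2 of 32851 upstream windows of the same length (0.00609%), and both belong to Nanog. TTTGCAT alone occurs in 4.12% of windows and ACAATG alone in 10.7%. The Apobec1 run holds neither, on either strand. These are matches of letters in a window and say nothing of binding.

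Values are FPKM (fragments per kilobase of transcript, scaled to the size of the library), and a gene was called different where limma on log2(FPKM + 1) returned a p under 0.05 after Benjamini-Hochberg adjustment together with a difference of 1 or more on that scale. The 16842 genes that reached 1 FPKM in at least 2 time-course samples entered the test, among them all 5 genes of the locus. Low values move in whole-read steps, which give the relative depth of each library. The 6 NanogWT libraries of D8, D10 and D12 came out 1.85 to 3.18 times as deep as a typical library. The other 25 stood at 0.81 to 1.1. At D8, D10 and D12 depth thus goes with the combination, and the effects of the 2 cannot be told apart on these days. Nothing in the labels says that replicates were separate cultures, so p-values measure only the spread between these samples. Fibroblast markers summed to 4.3 FPKM in mES and to 5708 and 6653 in MEF, and pluripotency markers stood at 3627 in mES against 0.365 to 1.5 in MEF, so both reference samples carry the markers of their labels.

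Slc2a3 was the first of the 5 genes to differ between the combinations, at D3, and its difference at D10 was the fifth largest in size among all genes tested. With NanogBiD its FPKM in the 2 samples of a day was 2.36 and 3.07 at D0 and 3.01 and 4.36 at D1, then 18.1 and 24.8 on D3. It went on to 66.9 and 68.5 at D5, 154 and 162 at D7, and 221 and 414 at D10, with 291 in the single D8 sample. With NanogWT no sample from D0 to D10 exceeded 7.86, and the D10 samples stood at 4.28 and 7.86. From D1 on, the lowest NanogBiD sample was above the highest NanogWT sample of the same day, while at D0 the ranges of both combinations overlapped.

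The ratio of mean Slc2a3 FPKM between NanogBiD and NanogWT was 4.57 at D3, 14 at D5, 32.7 at D7 and 52.3 at D10. On the log2(FPKM + 1) scale the difference was 1.96 at D3 (SE 0.29, adjusted p = 0.000105), 3.56 at D5 (SE 0.29, adjusted p = 5.4e-08), 4.77 at D7 (SE 0.29, adjusted p = 5.83e-10) and 5.47 at D10 (SE 0.29, adjusted p = 2.51e-11). It was 0.15 at D0 (adjusted p = 0.898) and 0.47 at D1 (adjusted p = 0.549), neither of which passed. When the fit was restricted to the D3 samples alone, the D3 difference kept its size and had an adjusted p of 0.123. MEF samples held 1.79 and 2.42 FPKM and mES 1071, so the NanogBiD mean at D10 was 29.6% ± 12.7 (SD, n = 2) of the mES level and the NanogWT mean 0.567% ± 0.236 (SD, n = 2).

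Dppa3 was listed at 0 in MEF and in every NanogBiD sample from D0 to D5. It then stood at 3.84 and 5.34 FPKM at D7, 51.3 at D8, and 56.4 and 88.3 at D10 with NanogBiD. With NanogWT it was listed at 0 in both D1 samples, and at 0.155 and 0.33 at D0, 0 and 0.159 at D3, and 0 and 0.693 at D5. It was then at 0 in both D7 samples, 0 and 0.631 at D8, and 1.79 and 3.7 at D10. Both NanogBiD samples were above both NanogWT samples at D7 and at D10.

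The difference for Dppa3 was 2.47 at D7 (SE 0.49, adjusted p = 0.000795) and 4.3 at D10 (SE 0.49, adjusted p = 5.12e-07), and the ratio of the D10 means was 26.3. No ratio is given for D7, where NanogWT was listed at 0. Dppa3 with NanogBiD passed its mES level, as mES held 22.9 FPKM and the NanogBiD mean at D10 was 316% ± 98.6 (SD, n = 2) of that. The NanogBiD samples of D8, D10 and D12 all lay above mES, which is a single sample.

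Gdf3 rose in both combinations, and more so with NanogBiD. It was at most 0.362 FPKM at D0 in any sample, and at D3 it was listed at 0 in both NanogBiD samples and at 0.335 and 0.437 in those of NanogWT. With NanogBiD it reached 1.18 and 1.35 at D5, 4.88 and 6.06 at D7, 23.2 at D8, and 11.6 and 21.7 at D10. With NanogWT it held 0.497 and 0.536 at D5, 0.955 and 1.25 at D7, 2.35 and 3.52 at D8, and 4.89 and 5.26 at D10. Samples of the 2 combinations did not overlap from D5 to D10.

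For Gdf3 the difference was 1.62 at D7 (SE 0.24, adjusted p = 4.3e-05) and 1.47 at D10 (SE 0.24, adjusted p = 3.41e-05), with ratios of means of 4.96 and 3.27. At D5 the difference of 0.58 did not pass (adjusted p = 0.112). The D3 difference was -0.47 (adjusted p = 0.258), and -2.27 with a pseudocount of 0.1 (adjusted p = 0.00594). Both combinations remained under mES, which held 75.9 FPKM: the D10 means were 21.9% ± 9.41 (SD, n = 2) of it with NanogBiD and 6.68% ± 0.345 (SD, n = 2) with NanogWT.

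Apobec1 ran the other way and was higher with NanogWT. Its 2 NanogWT samples held 5 and 6.7 FPKM at D5, 8.54 and 8.76 at D7, 12.5 and 15.8 at D8, and 11.9 and 15.1 at D10. The NanogBiD samples held 2.36 and 3.38 at D5, 4.11 and 4.76 at D7, 6.5 at D8, and 2.99 and 4.44 at D10. The 2 combinations did not overlap on these days, nor at D1 or D3, and the NanogWT samples from D5 on exceeded the 4.11 FPKM of mES.

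The Apobec1 difference was -1.63 at D10 (SE 0.23, adjusted p = 8.11e-06), a ratio of means of 3.63. At D3, D5 and D7 its adjusted p was 0.0473, 0.0192 and 0.0112, but the differences of -0.75, -0.83 and -0.83 were under the size limit. With a pseudocount of 0.1, limma called it at D3 (-1.01, adjusted p = 0.0405) and D5 (-1.01, adjusted p = 0.0281). The D5 difference reached the limit when NanogBiD replicate 1 (-1.02, adjusted p = 0.03) or NanogWT replicate 2 (-1, adjusted p = 0.0266) was left out. The NanogWT mean at D10 was 328% ± 55.9 (SD, n = 2) of the mES level and the NanogBiD mean 90.5% ± 24.9 (SD, n = 2).

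Nanog values were high from infection on. MEF held 0.229 and 0.235 FPKM, whereas the infected cells at D0 held 644 and 684 with NanogBiD and 450 and 497 with NanogWT. The values peaked between D1 and D5, at 1122 to 1590 with NanogBiD and 1299 to 1652 with NanogWT. They then declined to 712 and 723 at D7 and 128 and 200 at D10 with NanogBiD, and to 1215 and 1528 at D7 and 331 and 387 at D10 with NanogWT. At D7 and D10 both NanogWT samples were above both NanogBiD samples, the reverse of D0.

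The Nanog difference was 0.49 at D0 (adjusted p = 0.248), -0.92 at D7 (SE 0.2, adjusted p = 0.00196) and -1.15 at D10 (SE 0.2, adjusted p = 8.6e-05). The D7 value was under the size limit and passed it without NanogWT replicate 1 (-1.09, adjusted p = 0.00463). The D10 value lost the call without NanogBiD replicate 2 (-0.84, adjusted p = 0.00512). Pou5f1, the gene of Oct4 and the other vector factor, moved with it: it was 434 to 667 FPKM with NanogBiD and 2763 to 3644 with NanogWT at D10, a difference of -2.56 (SE 0.36, adjusted p = 6.49e-06). The mES sample held 365 FPKM of Nanog, near the 331 and 387 of NanogWT at D10.

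**Figure D1:**
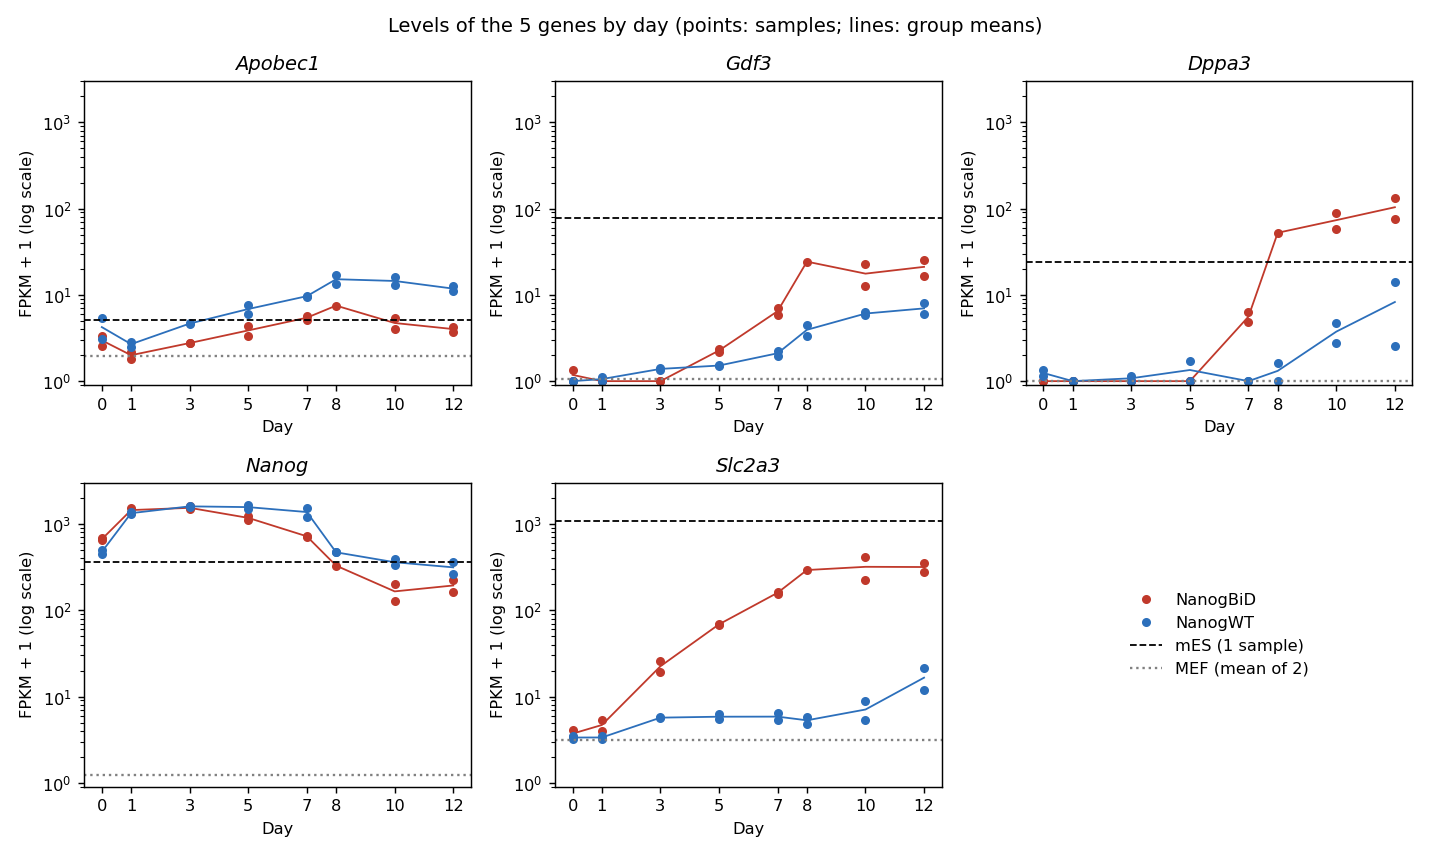
FPKM + 1 on a log axis against day for each of the 5 genes, with points for samples, lines for group means of NanogBiD and NanogWT, and horizontal lines for mES (1 sample) and the mean of 2 MEF samples. Slc2a3 with NanogBiD climbs from D3 to 221 and 414 FPKM at D10, Dppa3 appears at D7 and passes the mES line, and Apobec1 is higher with NanogWT.

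Of the 5 genes, 0 were called on day 0, where 0.760% of all genes tested were, and 0 on D1, against 1.33%. Slc2a3 was the 1 gene called on D3, when 3.70% of all genes were, and again the 1 gene on D5, with 6.48%. At D7, 3 were called, all higher with NanogBiD, against 10.4% of all genes, and at D10 all 5, of which 3 were higher and 2 lower, against 27.8%. The same fit was also limited to libraries of D0 to D7, a choice made after seeing the data that leaves out the deeper libraries. Its counts at D3, D5 and D7 were again 1, 1 and 3. It holds no D10 library, so depth and combination stay joined at D10 and in the difference of the D0 to D10 changes.

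**Figure D2:**
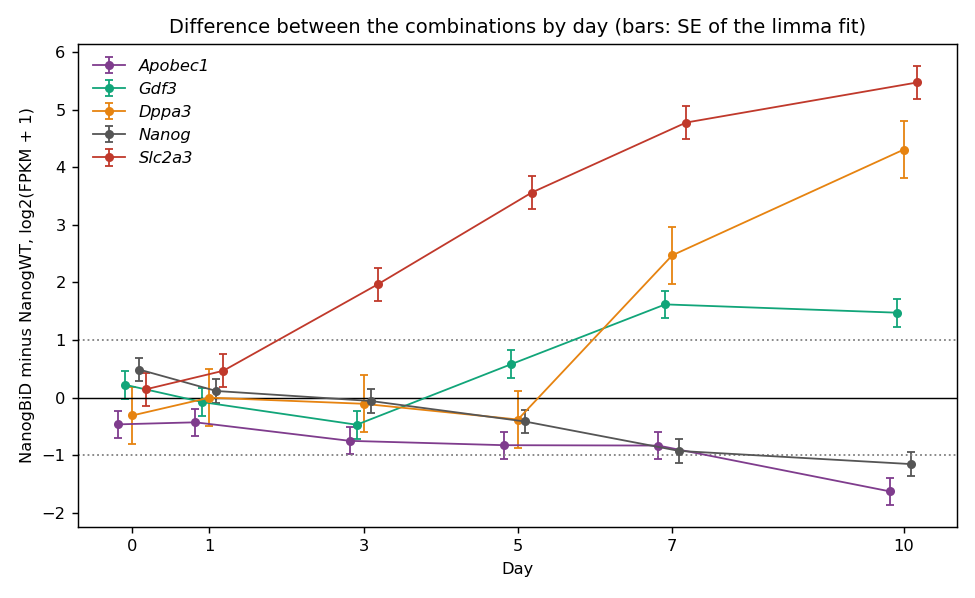
Difference between NanogBiD and NanogWT in log2(FPKM + 1) against day for the 5 genes, with bars for the SE of the limma fit and dotted lines at the size limit of 1. Slc2a3 leaves the others at D3 (1.96), and Dppa3 (2.47) and Gdf3 (1.62) follow at D7. Apobec1 (-1.63) and Nanog (-1.15), whose value adds vector and endogenous transcripts, lie below 0 at D10.

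At D12, the time point that chose the genes, Slc2a3 stood at 278 and 353 FPKM with NanogBiD against 10.8 and 20.2 with NanogWT. Dppa3 stood at 73.9 and 131 against 1.57 and 12.9. Their differences of 4.31 and 4.06 were the first and the second of all genes tested, and the next in order were Tdgf1 (3.94), Fabp3 (3.76), Cldn4 (3.65) and Krt8 (3.56). For Gdf3 the D12 difference was 1.58, for Nanog -0.70 and for Apobec1 -1.56. The 2 NanogWT samples of D12 differed more for Dppa3 than those of any earlier day.

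Each gene's own change over time, which may span the switch of medium, separated the combinations as well. From D0 to D10 with NanogBiD, Slc2a3 rose by 6.36, Dppa3 by 6.16 and Gdf3 by 3.85, while Nanog fell by 2.04 (adjusted p at most 7.28e-08 for each of these). Apobec1 changed by 0.66, under the size limit (adjusted p = 0.0201). The 4 called genes compare with 31.4% of all genes, whose median change was 0.31.

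With NanogWT over the same days, Gdf3 rose by 2.6 (adjusted p = 6.2e-08) and Apobec1 by 1.83 (adjusted p = 4.41e-06), with Dppa3 (1.55, adjusted p = 0.0175) and Slc2a3 (1.03, adjusted p = 0.00737) also past both limits. Here 16% of all genes were called, with a median change of 0.19. Both Slc2a3 (0.66, adjusted p = 0.141) and Dppa3 (1.17, adjusted p = 0.156) lost the call without NanogWT D10 replicate 2. They lost it too without NanogWT D0 replicate 2 (Slc2a3 0.96, adjusted p = 0.0413, and Dppa3 1.45, adjusted p = 0.0746). Nanog changed by -0.40 (adjusted p = 0.13).

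The difference between these 2 changes was tested directly and passed for all 5 genes, against 27.2% of all genes. It was 5.33 for Slc2a3 (SE 0.40, adjusted p = 1.2e-08), 4.61 for Dppa3 (SE 0.70, adjusted p = 3.57e-05) and 1.25 for Gdf3 (SE 0.34, adjusted p = 0.0061). For Nanog it was -1.64 (SE 0.29, adjusted p = 0.000166) and for Apobec1 -1.16 (SE 0.33, adjusted p = 0.0083). The Gdf3 call was lost with a pseudocount of 0.1 (0.52, adjusted p = 0.593), a common total (1.03, adjusted p = 0.056), a fit on the groups compared (adjusted p = 0.0653) and without NanogBiD D10 replicate 1 (0.83, adjusted p = 0.051). The Apobec1 call was lost in a fit on the groups compared (adjusted p = 0.1) and without NanogBiD D0 replicate 1 (-0.97), NanogBiD D10 replicate 2 (-0.94) or NanogWT D0 replicate 2 (-0.75).

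Ordered by mean level over the 18 groups of the gene table, Slc2a3 ran from MEF through NanogWT D0 to D10 and NanogBiD D0 and D1, all of which overlapped their neighbours in the order. NanogWT D12 and NanogBiD D3 came next and overlapped each other, then NanogBiD D5, D7 and D8, with D8, D12 and D10 overlapping, and mES was highest. Gdf3 was likewise highest in mES, followed by NanogBiD D8, D12 and D10, of which D8 and D10 each overlapped D12. Dppa3 was highest with NanogBiD at D12 and D10, which overlapped, then D8 and mES. Apobec1 was highest with NanogWT at D8 and D10, which overlapped, and lowest in MEF and NanogBiD D1, which did too. Nanog was lowest in MEF and highest from D1 to D5 in both combinations, and with NanogWT at D7, where most neighbours overlapped.

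Over the 34 samples of the gene table, the genes whose log2(FPKM + 1) was most like that of Slc2a3 were Tdgf1 (Pearson r = 0.99), Epcam (0.977) and Nr5a2 (0.974). For Dppa3 they were Zfp982 (0.972), H2-Bl (0.97) and Slc35f2 (0.968), and for Gdf3 L1td1 (0.975), Adap1 (0.965) and Utf1 (0.964). Nanog was nearest to Pou5f1 (0.978), the other vector factor, and Epha4 (0.902) was also among its nearest genes. Apobec1 was nearest to C1s1 (0.91), Trim60 (0.91) and Sync (0.902). Among the 5 genes, r was 0.896 for Gdf3 with Dppa3, 0.841 for Gdf3 with Slc2a3 and 0.829 for Dppa3 with Slc2a3, but -0.0222 for Nanog with Slc2a3 and 0.061 for Apobec1 with Slc2a3. The samples share days and combinations and include those of D12, whose values chose Slc2a3 and Dppa3, so these are descriptions.

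Marker lists moved with the late differences, and their part in them was not tested. At D10 the 8 pluripotency markers summed to 717 to 1168 FPKM with NanogBiD and 47.6 to 102 with NanogWT, and the 8 fibroblast markers to 438 to 551 and 3388 to 3540. In these bulk samples, fewer cells of a type and less RNA per cell cannot be told apart. At D3, where Slc2a3 was first called, the pluripotency sums were 14.1 to 18 with NanogBiD and 4.62 to 6.17 with NanogWT. The fibroblast sums were 753 to 857 and 1278 to 1308. For Dppa3, which germ cells also express, 5 germ cell markers summed to 24.7 to 35.5 with NanogBiD and 1.13 to 2.22 with NanogWT at D10, none of them at 0 in both samples of a group. The 5 trophoblast markers summed to 16.7 to 44.6 and 3.11 to 3.55, with Elf5 at 0 with NanogWT. In the mES sample the germ cell list summed to 37.2 and the trophoblast list to 32.9. Germ cells or trophoblast and pluripotent cells thus cannot be told apart by these sums.

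For Apobec1, which gut cells and macrophages express, the 8 macrophage markers overlapped at D10, at 3.34 to 6.37 with NanogBiD and 3.61 to 14.4 with NanogWT. Tyrobp and Cx3cr1 were at 0 in both NanogBiD samples, as they were in mES. The 5 enterocyte markers summed to 0.217 to 0.541 with NanogBiD and 0.0647 to 0.0709 with NanogWT. These sums came from Vil1 and Lct, as Fabp1, Fabp2 and Apoa4 were at 0 in both combinations. The same genes were at 0 in MEF and mES.

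Beyond the 5 genes, 25 annotated genes lie between them or within 250 kb on either side. Of these, 14 are in the gene table and 7 passed the filter on low values. At D10, 3 of the 7 were higher and 1 lower with NanogBiD, where 27.8% of all genes were called in either direction. Phc1, a Polycomb subunit whose start lies 367 kb from that of Nanog, held 34.5 and 41.6 FPKM with NanogBiD and 5.98 and 9.38 with NanogWT, a difference of 2.19 (SE 0.17, adjusted p = 3.57e-09). Rimklb, an amino acid ligase gene, held 5.21 and 5.72 against 0.308 and 0.86, a difference of 2.05 (SE 0.13, adjusted p = 4.85e-10). The 2 combinations did not overlap for either gene.

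Gm8430, a processed pseudogene inside Rimklb on the opposite strand, was also called (1.69, SE 0.50, adjusted p = 0.00713). Its reads may belong to its parent gene or to Rimklb, as the use of strand in counting is not stated. Mfap5, a gene of extracellular microfibrils, was lower with NanogBiD (-1.76, SE 0.23, adjusted p = 2.19e-06), as it was at D1 (-1.03, adjusted p = 0.0148). On the far side of Slc2a3, Foxj2 (-0.87) and C3ar1 (-0.59) were not called at D10. From D0 to D10, Phc1 rose by 2.51 and Rimklb by 2.68 with NanogBiD, and C3ar1, a complement receptor gene, fell by 1.88 with NanogBiD and by 1.3 with NanogWT. Gm8430 fell by 1.82 with NanogWT. The change of Foxj2, a forkhead factor gene, differed between the combinations by -1.003 (adjusted p = 0.00436).

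**Figure D3:**
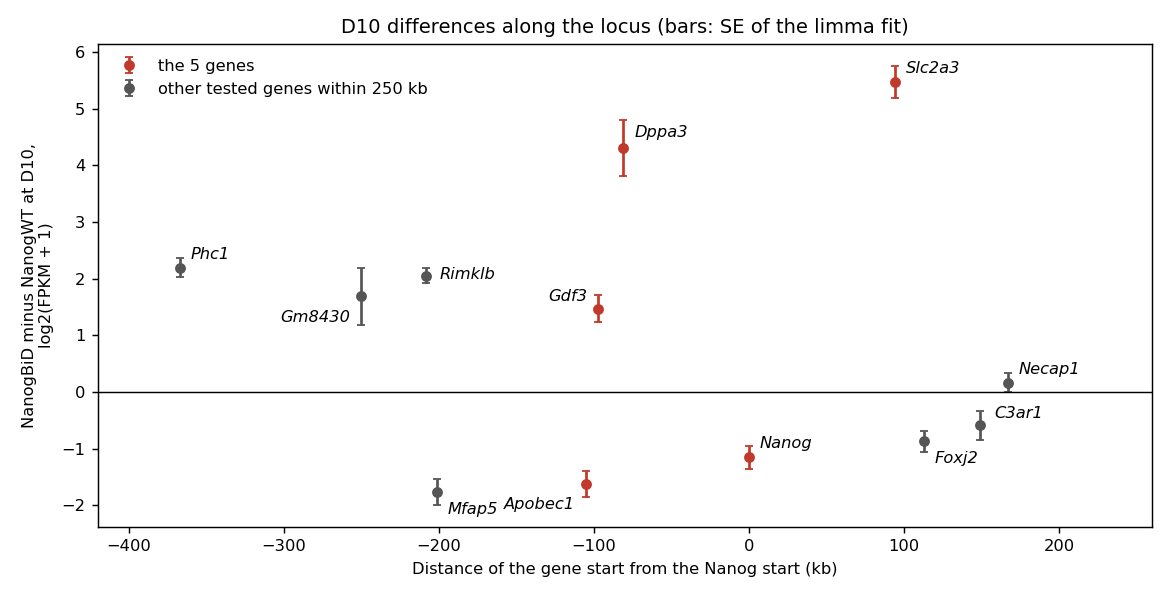
NanogBiD minus NanogWT at D10 in log2(FPKM + 1) against the distance of each gene start from the Nanog start in kb, for the 5 genes and the 7 other tested genes within 250 kb, with bars for the SE of the limma fit. Dppa3 (4.3) and Slc2a3 (5.47) lie above 0 on either side of Nanog (-1.15), which lies below it. The Nanog value adds vector and endogenous transcripts, so it does not show the level of the gene at this locus.

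Partners of the 5 genes were then read from lists. For Slc2a3, 8 of 10 other glucose transporters passed the filter, and at D10 1 was higher and 2 lower with NanogBiD, where 27.8% of all genes were called. The higher one was Slc2a1 (GLUT1), with 373 and 399 FPKM against 29.7 and 51, a difference of 3.28 (SE 0.20, adjusted p = 1.65e-10). Slc2a10 (-2.82, adjusted p = 8.81e-10) and Slc2a12 were lower. Slc2a1 was not called at D3 (-0.20) or D5 (0.43), when Slc2a3 was, and had a difference of 2.58 at D7 (adjusted p = 1.21e-08). The list median at D10 was -0.53, beside 0.10 over all genes tested.

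All 13 glycolysis genes were tested. With NanogBiD 0 were higher at D3, 1 at D5, 7 at D7 and 11 at D10, and none was lower on these days, against 3.70%, 6.48%, 10.4% and 27.8% of all genes called in either direction. Eno1 (2.69, adjusted p = 2.73e-10), Pgk1 (2.72, adjusted p = 1.85e-09) and Ldha (2, adjusted p = 4.4e-08), which encode enolase, phosphoglycerate kinase and lactate dehydrogenase, were among those higher at D10. The list median at D10 was 2, beside 0.10 over all genes.

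For Gdf3, 11 of 14 ligands, receptors, mediators and antagonists of its pathway were tested, and 1 was higher with NanogBiD at D3 and D5, 3 at D7 and 6 at D10, with 0 lower, beside 3.70%, 6.48%, 10.4% and 27.8% of all genes called. The early one was Tdgf1, the co-receptor also called Cripto, with a difference of 2.64 at D3 (adjusted p = 2.55e-05) and 4.17 at D10 (adjusted p = 6.84e-09). Lefty2 (3.5, adjusted p = 4.58e-09) and Lefty1 (2.87, adjusted p = 1.07e-06), antagonists of the pathway, and its ligand Nodal (2.16, adjusted p = 5.47e-06) were called at D10. The median was 1.08 at D10, beside 0.10 over all genes.

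For Dppa3, all 8 methylation genes were tested, with 0 called at D3 and D5, 2 at D7 (10.4% of all genes) and 5 at D10 (27.8%), each of them higher with NanogBiD. Uhrf1, whose product Dppa3 binds, held 83.4 and 92.1 FPKM at D10 against 9.13 and 22.2, a difference of 2.53 (SE 0.27, adjusted p = 2.07e-07). The maintenance methyltransferase gene Dnmt1 (1.7, adjusted p = 9.56e-08), Dnmt3b (2.66, adjusted p = 2.37e-08) and the dioxygenase gene Tet1 (2.23, adjusted p = 1.9e-07) were higher too. The list median at D10 was 1.85, beside 0.10 over all genes.

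For Apobec1, 3 of 7 cofactors and relatives were tested. At D10, Rbm47 (1.95, adjusted p = 3.12e-08), a cofactor of RNA editing, and Apobec2 (1.49, adjusted p = 2.12e-06) were higher with NanogBiD, where Apobec1 was lower, and Syncrip was not called (0.73), beside 27.8% of all genes called. Rbm47 held 3.22 and 4.7 FPKM with NanogBiD and 0.254 and 0.284 with NanogWT. The list median was 1.49, beside 0.10 over all genes.

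For Nanog, all 13 partner genes were tested, and 9 were higher and 1, Pou5f1, lower with NanogBiD at D10, when 27.8% of all genes were called. Sox2 (3.55, adjusted p = 1.77e-06) and Esrrb (3.44, adjusted p = 8.87e-09) were among the higher ones. At D3 the list had 1 higher and 1 lower, at D5 4 higher, and at D7 7 higher and 1 lower, when 3.70%, 6.48% and 10.4% of all genes were called. Its median at D10 was 2.54, beside 0.10 over all genes.

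In iPSC clones no difference between the 2 combinations passed the test for any of the 5 genes. The transcript table, summed by symbol and normalized apart from the gene table, gave Slc2a3 levels of 306 to 662 FPKM in the 6 NanogBiD samples (median 368) and 323 to 804 in the 6 NanogWT samples (median 546). Dppa3 ran from 2.74 to 13.8 (median 4.32) and from 5.67 to 13.6 (median 7.05). Gdf3 ran from 60.5 to 79.8 (median 69.7) and from 65.5 to 76.8 (median 73.6). The ranges overlapped for each of these genes.

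Apobec1 ran from 1.4 to 2.2 FPKM (median 1.75) in NanogBiD clones and from 1.23 to 2.55 (median 2.05) in NanogWT clones. Nanog ran from 258 to 439 (median 277) and from 282 to 376 (median 339). With the label iPSC1 or iPSC2 as a covariate, 0 of the 5 genes and 0% of 12456 genes tested were called by limma. Of all genes, 201 had an unadjusted p under 0.05, fewer than evenly spread p-values would give. The lack of calls does not show that the clones are alike. The differences were -0.43 for Slc2a3 (SE 0.21), -0.53 for Dppa3 (SE 0.33), -0.07 for Gdf3 (SE 0.08), -0.11 for Apobec1 (SE 0.15) and -0.14 for Nanog (SE 0.13), each with an adjusted p of 0.999.

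Clone 9 of NanogBiD iPSC1 stood apart in its fibroblast markers, which summed to 1379 FPKM against 1.24 to 430 in the other 11 iPSC samples. Without it the differences were -0.40 for Slc2a3, -0.53 for Dppa3, -0.02 for Gdf3, -0.13 for Apobec1 and -0.10 for Nanog, and 0 were called. Fibroblast markers were at 6401 and 7258 in the MEF samples of this table.

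Against MEF, 4 of the 5 genes were higher in iPSC, where 40.5% of 13312 genes were called and the median difference was 0.21. The difference was 8.06 for Nanog (adjusted p = 4.92e-15), 7.13 for Slc2a3 (adjusted p = 7.44e-11), 6.1 for Gdf3 (adjusted p = 4.79e-16) and 2.85 for Dppa3 (adjusted p = 2.78e-05). Apobec1 did not pass (0.40, adjusted p = 0.0774).

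As a share of the single mES sample, the 12 iPSC samples averaged 110% for Gdf3 (93.4% to 123%) and 81.4% for Nanog (65.7% to 112%). Slc2a3 averaged 43.8% (27.2% to 71.5%), Apobec1 43.5% (28.8% to 59.6%) and Dppa3 31.9% (12.6% to 63.6%). All 12 samples were thus under mES for these 3 genes. Dppa3 in the NanogBiD samples of D8 to D12 lay above mES in the gene table and in iPSC below mES in the transcript table, so the order against mES was opposite within each table.

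**Figure D4:**
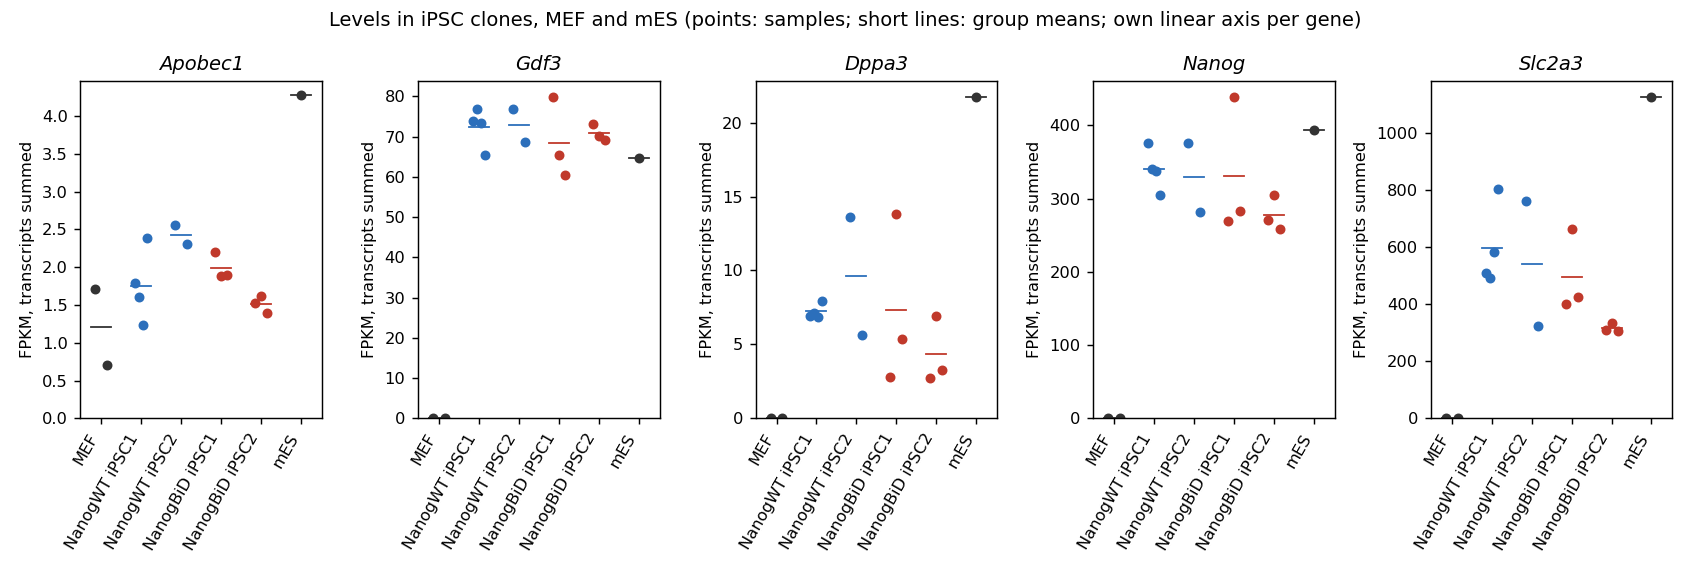
FPKM summed over transcripts in MEF, iPSC clones (labelled iPSC1 or iPSC2, from both combinations) and mES. Points are samples, short lines are group means, and each gene has its own linear axis from 0. Gdf3 lies around its mES level, and Slc2a3, Dppa3 and Apobec1 lie below theirs in all 12 iPSC samples.

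Between the samples labelled iPSC2 and iPSC1, 0 of the 5 genes and 0.883% of genes were called. The labels do not say what these 2 names, used in both combinations, stand for. They are called lines below. Slc2a3 had the largest of the 5 differences, -0.43 for iPSC2 against iPSC1 (SE 0.21, adjusted p = 0.226). The column headers give passage 5 or 6 for iPSC1 and passage 2 for iPSC2, and the effects of line and of passage cannot be told apart.

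By transcript, Slc2a3 came mainly from NM_011401.4, with 90.1% to 99.5% of the summed FPKM in iPSC and 97.7% in mES, and Gdf3 from NM_008108.4, with 98% to 100% in iPSC. Dppa3 has the single transcript NM_139218.1. Nanog was divided between NM_001289828.1, with 43% to 79.7% in iPSC, NM_028016.3, with 3.39% to 53.3%, and minor forms. For Apobec1, XM_006505401.2 held 88.6% in mES and a median of 11.5% in iPSC (0% to 78.9%), where NM_001134391.1 had a median of 67.2%. Splitting reads among overlapping transcripts of so low a gene is uncertain.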

How the data were processed

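RNA-seq libraries were made from time-course, MEF, mES and iPSC samples (46 in all). The authors deposited FPKM values, per gene for 34 samples and per transcript for 15, with MEF and mES in both. The submitters' processing notes name Trim Galore 0.6.4, HISAT2 2.2.1, StringTie 2.2.1 and the mm10 build. The annotation and the use of strand are not given in the sources used here. FPKM is scaled to each library's total and to transcript length, so counts were not at hand and count models were not run. FPKM totals of the time-course samples ranged from 370030 to 462190. Relative depth was estimated from the whole-read steps of 7296 genes. Of their low values, 98.91% to 99.85% lay within 0.05 of a whole read.

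Transcripts were summed by symbol. log2(FPKM + 1) was fitted with limma 3.58.1 in R 4.3.3, with all 16 time-course groups in 1 fit, after a filter of 1 FPKM in at least 2 samples. Adjusted p-values are Benjamini-Hochberg over all genes tested. The authors' own software for comparisons needs reads and was not used. The iPSC fit had the label iPSC1 or iPSC2 (line) as a covariate. Scripts were tested on simulated data. Same-numbered replicates were checked for shared deviations (r from -0.0647 to 0.395 over 6 days) and were not taken as pairs. Alternatives tried were a pseudocount of 0.1, no filter, a common total, quantile normalization, fits on the groups compared, a replicate block, no line term, the 2 clone 1 samples averaged, and leaving out each replicate.

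Genes named are the 5 genes of the locus, neighbours within 250 kb that were called or lie between them, at most 4 of each partner list, and the 3 genes most like each of the 5, of which 1 is not reported here. Marker genes at 0 and the genes next in order at D12 are also named, chosen after their values were seen. The 5 genes and the lists were chosen with earlier results of these data known. Promoter sequences are from RefSeq. A second Nanog window was left out because its upstream bases are transcribed from the earlier start.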

Additional observations from a re-analysis of the deposited data

Results flagged for a closer look

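In 15 sets of iPSC samples, 3 held a sample far from the others. Chance alone gives about 1 in 20 for a set taken by itself. The sets of different genes hold the same samples, and clone 8 was the sample apart for Nanog and for Slc2a3. The sets are thus not independent, so the count of 3 cannot be compared with that rate. For Dppa3 in the NanogWT clones, the gap of the highest sample (13.6 FPKM, iPSC2 clone 5) to the next was 0.7105 of the whole range. For Nanog in the NanogBiD clones it was 0.7454 (439 FPKM, iPSC1 clone 8), and for Slc2a3 in the same clones 0.6665 (662 FPKM, also clone 8). Clone 8 was the highest NanogBiD sample for Dppa3 too, at 13.8 FPKM.

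The change from D0 to D10 differed between NanogBiD and NanogWT for each of the 5 genes, by the limma interaction test on log2(FPKM + 1), although the Gdf3 and Apobec1 calls were lost under several alternatives. The difference was 5.325 for Slc2a3, 4.614 for Dppa3, 1.252 for Gdf3, -1.641 for Nanog and -1.163 for Apobec1. Of all genes tested, 27.2% were called in the same interaction test. At D10 both NanogBiD samples lay on the same side of both NanogWT samples for each of the 5 genes. The share of all genes with such a separation was not computed, so it cannot be read as a trait of these 5 genes. For Gdf3 the call was lost with a pseudocount of 0.1 (0.52, adjusted p = 0.593), a common total (adjusted p = 0.056), a fit on the groups compared (adjusted p = 0.0653) and without NanogBiD D10 replicate 1. For Apobec1 it was lost in a fit on the groups compared (adjusted p = 0.1) and without NanogBiD D0 replicate 1, NanogBiD D10 replicate 2 or NanogWT D0 replicate 2.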

How the results depend on the processing

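Of 755 recomputed differences of the 5 genes, 724 kept their direction and side of the threshold. Fits on the groups compared alone left 0 genes called on the first 3 days (D0, D1, D3), 0 of the 5 genes at D3 and 3 for the difference of changes, where they have fewer samples to estimate the spread. A pseudocount of 0.1 gave 196 genes at D0 (128 with a pseudocount of 1), 1011 at D3 (623), 1689 at D5 (1091), 2716 at D7 (1758), 4284 for NanogWT D10 against D0 (2700) and 235 between iPSC lines (110), with 3 of the 5 genes at D3 and 2 at D5. A common total gave 937 genes at D3, 4068 for NanogWT D10 against D0 and 183 between lines, and no filter gave 68 between lines. Quantile normalization left 2 of the 5 genes in NanogWT D10 against D0. The causes were not tested. The Gdf3 interaction was 0.52 with a pseudocount of 0.1 (adjusted p = 0.593) and 1.03 with a common total (adjusted p = 0.056).

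Without 1 replicate, counts ran from 92 to 654 at D0 (the highest without NanogWT replicate 2) and 136 to 214 at D1 (the lowest without NanogBiD replicate 1). They ran from 65 to 235 between lines, from 1 to 2 of the 5 genes at D5, and from 2 to 4 in NanogWT D10 against D0. Differences between lines near 0 changed sign: Gdf3 to -0.0016 under quantile normalization and, without 1 replicate, where Gdf3 ran from -0.0088 to 0.085, Apobec1 from -0.065 to 0.0799 and Dppa3 from -0.43 to 0.16.

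Replicates share only a number: the correlation of same-numbered deviations was 0.23, 0.13, -0.065, -0.043, 0.39 and 0.12 from D0 to D10. The replicate block gave 150, 241, 637, 1116, 1765 and 4683 genes from D0 to D10, with 0, 0, 1, 1, 3 and 5 of the 5 genes, and changed no call among them. With mES taken from the transcript table, the 5 percentages of mES at D10 moved by less than 1 SD. Depth limits Dppa3 and Gdf3 before D5, where no sample exceeded 0.437 FPKM.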
